A study of Mus musculus with 2 samples.

Results

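The 8 genes described here encode surface or secreted proteins with which antigen-presenting cells stimulate or restrain T cells: Cd274, Pdcd1lg2, Cd80, Cd86, Icosl, Cd40, Tnfsf9 and Lgals9. They were listed by name, with earlier results of these data known, and all 8 were found among the 32285 genes counted in each of the 2 single-cell libraries. Each library was made from the tumors of 10 female mice, 6 to 12 weeks old and pooled, in which AT3, a mammary tumor line of the mouse, had grown until day 30. The Pgdfl/fl library (labelled WT) came from mice in which both copies of Pgd, the gene of the pentose phosphate pathway enzyme 6-phosphogluconate dehydrogenase (6PGD), are flanked by loxP sites but intact. The Pgdfl/flLysMCre library (labelled 6PGDKO) came from mice with the same floxed Pgd and Cre recombinase placed in the Lyz2 locus, which is active in macrophages, monocytes and neutrophils and deletes Pgd there. The floxed allele is therefore shared by both groups. A genotype had only 1 library, so no difference between genotypes was tested, and each value below describes these libraries. The study asked how loss of 6PGD alters immune regulation by tumor myeloid cells, and the ligands are one route by which such cells reach T cells.

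A T cell that meets antigen needs a further signal from the presenting cell. CD80 and CD86 give it through CD28 and withhold it through CTLA-4, while ICOS ligand (Icosl) binds ICOS and 4-1BB ligand (Tnfsf9) binds 4-1BB, the product of Tnfrsf9. CD40 works in the other direction: it is a receptor on the presenting cell that binds CD40 ligand on helper T cells and raises the costimulatory ligands. PD-L1 (Cd274) and PD-L2 (Pdcd1lg2) bind the inhibitory receptor PD-1 on T cells, and galectin-9 (Lgals9) is a secreted lectin for which TIM-3 (Havcr2) is a known partner. Mature dendritic cells (DCs) carry many of these proteins, and macrophages in tumors are known for PD-L1.

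The Pgdfl/fl library held 3728 barcodes and 27245625 unique molecular identifiers (UMIs, tags that each mark 1 captured RNA molecule), and the Pgdfl/flLysMCre library 3014 barcodes and 28827045 UMIs. No barcode sequence was shared (0 shared barcodes). After filtering, 3565 and 2798 cells remained, with medians of 5554 and 7926 UMIs. The labels name both live CD45+ and live CD11b+ cells as the sorted population, and T and B cells were present in both libraries. Clusters were named as cells like a type from that type's markers, so each name below stands for macrophage-like, classical monocyte-like, mature DC-like, type 1 conventional DC-like (cDC1), Langerhans cell-like or B cell-like cells. The Pgdfl/fl and Pgdfl/flLysMCre libraries held 655 and 671 macrophages, 128 and 330 classical monocytes, 59 and 84 mature DCs, 41 and 55 cDC1s, 102 and 146 Langerhans cells, and 566 and 35 B cells. The classical monocytes included a subcluster led by Ly6c2, Cd209a and Ccl17, with 78 and 182 cells, and one with Ace and Adgre4 among its leading genes, with 21 and 42 cells, whose highest-scoring marker list was that of non-classical monocytes. The first, 60.9% and 55.2% of the classical monocytes, took no name of its own. Its highest-scoring list was that of plasmacytoid DCs, with 2 markers detected. Of its leading genes, Ly6c2 is a listed marker of classical monocytes and Cd209a of a DC type. A further 1162 and 602 cells were left unnamed. Of them, 997 and 400 lay in 3 clusters in which the 8 T cell markers were detected but none of these was among the 10 leading genes, while 1 marker of another type was. Pgd itself had 912 and 309 UMIs in macrophages, 105 and 30.6 as CPM, the count scaled to 1000000 UMIs of the same cells, a log2 ratio of Pgdfl/flLysMCre over Pgdfl/fl of -1.78 (95% interval -1.98 to -1.60). Its log2 ratio was -1.32 in classical monocytes and -0.65 in Langerhans cells, and -0.38 in mature DCs, -0.07 in cDC1s and -0.05 in T cells, where the intervals included 0. Every interval here and below covers counting error only, and treats UMIs as independent, so it is too narrow where few cells hold the UMIs.

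Both PD-1 ligands lie on chromosome 19 of the GRCm38 assembly, Cd274 (ENSMUSG00000016496) at 29362107-29388095 and Pdcd1lg2 (ENSMUSG00000016498) at 29410919-29472927, on the plus strand and next to each other. Lgals9 lies on chromosome 11 at 78962979-78984924 on the minus strand. Interferon gamma and NF-kB are well-known inducers of several members, so the 250 bases before the RefSeq transcription start were searched on both strands for an interferon response motif (GAAA, 2 bases of any kind, GAAA) and for an NF-kB motif (GGG, 5 bases of any kind, CC). Start sites were at hand for 5 of the 8 members, Cd274, Pdcd1lg2, Cd80, Icosl and Lgals9. The interferon motif stood in 1 of these 5 windows and in 2.98% of 32851 promoters, and the NF-kB motif in 4 and in 45.8%. The windows of the PD-1 ligands and Lgals9 are printed 5′ to 3′ on the gene's own strand because the PD-1 ligands are neighbours that share a receptor but differed in macrophages, and because Lgals9 held the interferon motif. Capitals mark the matches, which are matches of letters and not shown sites. The Cd274 window (chr19:29367188-29367437, plus strand) precedes a start inside the span of the gene. The Pdcd1lg2 window (chr19:29410669-29410918, plus strand) had the NF-kB motif 244 bases before its start, and the Lgals9 window (chr11:78984925-78985174, minus strand) had the NF-kB motif 129 bases and the interferon motif, read on the other strand, 55 bases before its start.
Cd274: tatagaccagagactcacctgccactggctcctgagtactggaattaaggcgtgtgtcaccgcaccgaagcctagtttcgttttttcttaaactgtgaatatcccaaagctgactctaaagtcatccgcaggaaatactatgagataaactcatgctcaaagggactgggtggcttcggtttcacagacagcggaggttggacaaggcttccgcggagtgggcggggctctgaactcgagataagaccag
Pdcd1lg2: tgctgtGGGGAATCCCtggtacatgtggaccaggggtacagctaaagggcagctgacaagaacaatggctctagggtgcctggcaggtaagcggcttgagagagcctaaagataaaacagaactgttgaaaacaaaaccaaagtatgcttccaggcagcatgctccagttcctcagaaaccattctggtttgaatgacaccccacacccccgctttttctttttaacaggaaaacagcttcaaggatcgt
Lgals9: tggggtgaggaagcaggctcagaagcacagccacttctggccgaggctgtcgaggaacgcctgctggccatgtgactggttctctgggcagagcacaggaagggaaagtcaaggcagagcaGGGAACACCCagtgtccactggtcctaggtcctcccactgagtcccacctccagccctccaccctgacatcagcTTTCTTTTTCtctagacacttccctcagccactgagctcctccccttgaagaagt

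Cd274 was found in every named type, most in neutrophils and mature DCs and least in Langerhans cells. In order of level in Pgdfl/fl, neutrophils had 405 CPM and 458 in Pgdfl/flLysMCre, mature DCs 227 and 309, B cells 109.5 and 180.3, macrophages 106 and 116, and classical monocytes 96.4 and 152. Below them were 76.1 and 75.5 in T cells, 35.7 and 28.2 in cDC1s, and 10.8 and 27.0 in Langerhans cells. The intervals of macrophages (99.2 to 113 CPM), classical monocytes (80.4 to 115) and B cells (96.3 to 124) overlapped in Pgdfl/fl, so these neighbours were not told apart there, while in Pgdfl/flLysMCre classical monocytes (139.9 to 165) lay above macrophages (109 to 123). Neutrophils were shallow, with medians of 2243.5 and 2113 UMIs against 12588 and 14004 in macrophages. Cells were therefore also thinned to 2000 UMIs, which left out shallower cells and kept 641 and 644 macrophages, 36 and 44 neutrophils and 672 and 636 T cells. Cd274 was then seen in 36.1% of Pgdfl/fl and 22 of 44 Pgdfl/flLysMCre neutrophils, 36.2% and 43.9% of mature DCs, 17.5% and 19.4% of macrophages and 1.96% and 4.83% of Langerhans cells. By UMIs, macrophages held the most, 40.5% of all Cd274 UMIs of the Pgdfl/fl library and 39.8% in Pgdfl/flLysMCre.

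Pdcd1lg2, the other PD-1 ligand, was low in macrophages. Mature DCs had 81.7 and 95.4 CPM in Pgdfl/fl and Pgdfl/flLysMCre, followed by ILCs and NK cells with 68.2 and 63.0 and T cells with 56.0 and 63.6, and these lymphocyte levels overlapped. B cells had 37.5 and 70.6 CPM and classical monocytes 21.1 and 27.7. Macrophages had 11.8 and 14.96 CPM, Langerhans cells 11.6 and 9.51, and cDC1s 8.50 and 9.72, with overlapping intervals. T cells held 35.1% and 34.8% of the Pdcd1lg2 UMIs of the 2 libraries, against 14.4% and 17.5% in macrophages. Both PD-1 ligands were thus found in mature DCs and in lymphocytes. In macrophages Cd274 stood above, and Pdcd1lg2 below, its own level in T cells.

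Cd86 and Cd80 encode the ligands of CD28 and CTLA-4 and lie on chromosome 16, at 36568956-36666158 and 38457430-38495958. Cd86 was spread over the antigen-presenting myeloid cells: 332 and 394 CPM in Langerhans cells in Pgdfl/fl and Pgdfl/flLysMCre, 269 and 275 in macrophages, 246 and 381 in mature DCs, 241 and 304 in cDC1s and 207 and 199 in classical monocytes. In Pgdfl/fl the intervals of macrophages, mature DCs and cDC1s overlapped. T cells, set beside them for comparison, had 24.9 and 37.2 CPM. After thinning, 5.21% and 8.81% of T cells and 42.0% and 41.1% of macrophages had a Cd86 UMI, and before thinning 12.9% and 17.4% against 88.7% and 85.7%, with medians of 4660 and 4891 UMIs in T cells. Cd80 had its highest levels in neutrophils (172 and 244 CPM) and mature DCs (94.4 and 132), then classical monocytes (58.7 and 56.0), Langerhans cells (42.6 and 55.6) and macrophages (37.7 and 27.4). Langerhans cells and macrophages overlapped in Pgdfl/fl but not in Pgdfl/flLysMCre. B cells had 7 and 2 Cd80 UMIs in all, which is 3.09 and 15.7 CPM, and after thinning 1.22% and 0.901% of ILCs and NK cells had a UMI.

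Cd40 (chromosome 2, 165055614-165071654) was highest in mature DCs, with 114 and 111 CPM in Pgdfl/fl and Pgdfl/flLysMCre, and in classical monocytes, with 106 and 80.9. Macrophages had 60.5 and 45.4 CPM, Langerhans cells 43.4 and 56.1, B cells 29.2 and 31.4, and cDC1s 18.7 and 40.8. T cells had 4.97 and 6.34 CPM. After thinning, 0.893% and 1.10% of T cells had a Cd40 UMI against 11.9% and 8.70% of macrophages, and before thinning 2.81% and 2.98% against 40.5% and 36.7%. Icosl (chromosome 10, 78069368-78079525) was highest in B cells, with 56.1 and 54.9 CPM, and its intervals in macrophages (40.2 and 33.9), cDC1s (40.8 and 34.03) and mature DCs (38.3 and 22.8) overlapped. Classical monocytes had 30.9 and 19.4 CPM of Icosl, and Langerhans cells, with 6.97 and 8.01, stood near the T cells, with 4.29 and 4.86. Tnfsf9 (chromosome 17, 57105287-57107758) was highest in mature DCs, at 67.6 and 62.8 CPM, but 5 cells held 71.7% and 46.8% of those UMIs. Its levels in T cells (24.0 and 22.8 CPM), macrophages (21.2 and 28.8) and classical monocytes (18.1 and 37.9) overlapped in Pgdfl/fl.

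Lgals9 was highest in macrophages in Pgdfl/fl and in neutrophils in Pgdfl/flLysMCre. Macrophages had 177 and 166 CPM in Pgdfl/fl and Pgdfl/flLysMCre, classical monocytes 132 and 147, neutrophils 96.1 and 215, Langerhans cells 77.5 and 79.6 and cDC1s 62.9 and 71.0. Mature DCs, at the top for Cd274, Pdcd1lg2, Cd80, Cd40 and Tnfsf9 among the antigen-presenting types, had the lowest Lgals9 of them in Pgdfl/fl, 21.7 CPM, against 24.5 in Pgdfl/flLysMCre. Macrophages held 56.7% and 52.3% of the Lgals9 UMIs of the libraries. The plot of levels by cell type shows the contrast between Lgals9 and the other members.

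**Figure D1:**
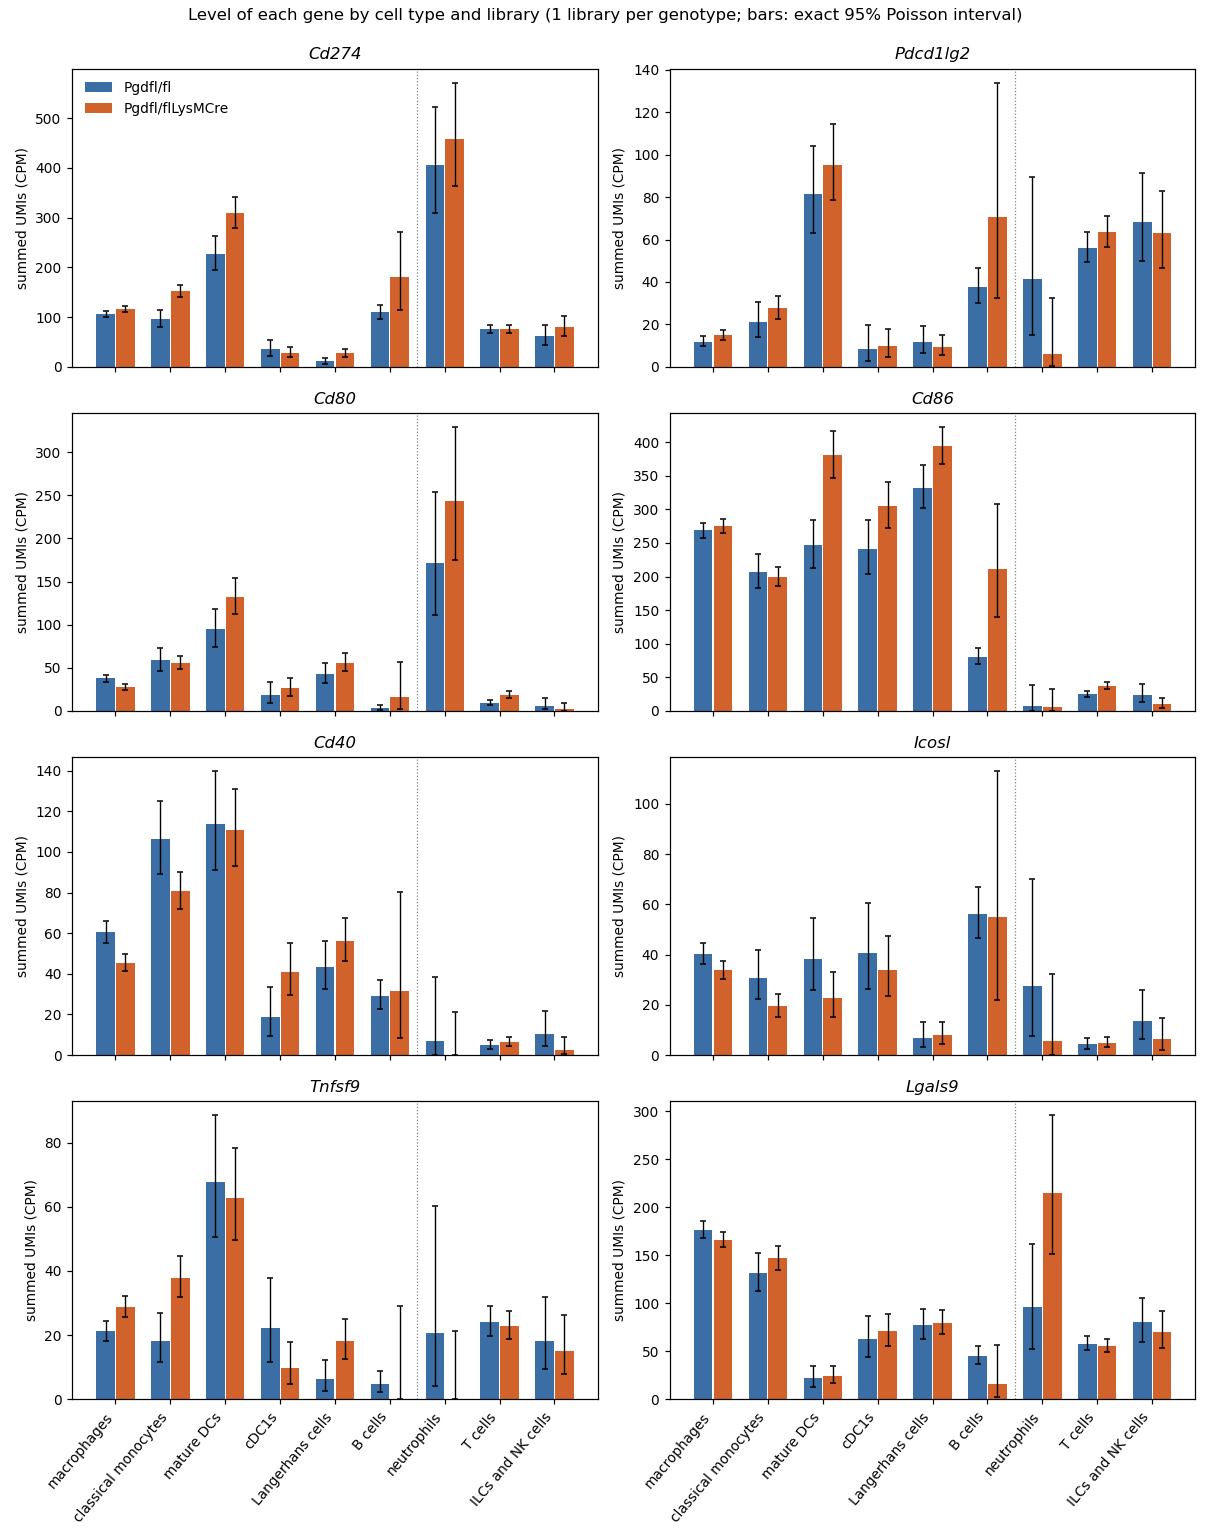
Level of each member (CPM, bars) in the named cell types of the Pgdfl/fl and Pgdfl/flLysMCre libraries, with exact Poisson 95% intervals for counting error. Mature DCs lead the antigen-presenting types for Cd274 (227 and 309 CPM) and are low for Lgals9 (21.7 and 24.5 CPM).

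In macrophages, the main target of LysM-Cre, the members stayed within 1.5-fold between the genotypes, with the stimulatory ligands split in direction. Cd80, with 326 and 277 UMIs (37.7 and 27.4 CPM), had a log2 ratio of -0.46 (-0.69 to -0.22). Cd40, with 523 and 458 UMIs (60.5 and 45.4 CPM), had -0.41 (-0.60 to -0.23), and Icosl, with 348 and 342 UMIs, had -0.25 (-0.47 to -0.03). These 3 were lower in Pgdfl/flLysMCre. Tnfsf9, with 183 and 291 UMIs (21.2 and 28.8 CPM), had 0.45 (0.17 to 0.72), and Cd274, with 916 and 1171 UMIs, had 0.13 (0.01 to 0.26). Both were higher in Pgdfl/flLysMCre by less than 1.5-fold. Of the Tnfsf9 UMIs, 5 cells held 29.0% in Pgdfl/fl and 21.3% in Pgdfl/flLysMCre. The intervals of Cd86 (2323 and 2775 UMIs, log2 ratio 0.03, -0.05 to 0.11), Lgals9 (-0.09, -0.19 to 0.01) and Pdcd1lg2 (102 and 151 UMIs, 0.34, -0.03 to 0.72) included 0. Past 1.5-fold stood 0 of 8 members, against 7.34% higher and 4.43% lower, 11.8% in all, of the 11804 genes with at least 20 UMIs in these cells, and the median log2 ratio was -0.03 for the members and 0.07 for all those genes. The same side of 0 was kept under every alternative for Cd80 (-0.72 to -0.43), Cd40 (-0.56 to -0.32), Icosl (-0.69 to -0.17), Tnfsf9 (0.28 to 0.96) and Cd274 (0.07 to 0.22).

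T cell transcripts in macrophages also differed between the libraries. The 8 T cell markers, all of them detected, summed to 523 CPM in Pgdfl/fl macrophages and 816 in Pgdfl/flLysMCre, and 37.4% and 49.6% of macrophages had a UMI of one. Without the subclusters led by T or B cell genes, Pdcd1lg2 had a log2 ratio of -0.41 (-0.97 to 0.15) in macrophages in place of 0.34, and both intervals included 0. Macrophages with no UMI of a T or B cell marker (319 and 274 cells) kept Cd80 at -0.43 (-0.79 to -0.07), Cd40 at -0.56 (-0.86 to -0.26) and Tnfsf9 at 0.76 (0.31 to 1.21), the last past 1.5-fold.

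In classical monocytes, Cd274 and Tnfsf9 were higher in Pgdfl/flLysMCre and Icosl and Cd40 lower. Cd274 had 128 UMIs in Pgdfl/fl and 586 in Pgdfl/flLysMCre, 96.4 and 152 CPM, a log2 ratio of 0.66 (0.38 to 0.94). For Tnfsf9, 24 and 146 UMIs (18.1 and 37.9 CPM) gave 1.07 (0.44 to 1.75). Icosl had 41 and 75 UMIs, 30.9 and 19.4 CPM, and -0.67 (-1.24 to -0.08), and Cd40 had 141 and 312 UMIs, 106 and 80.9 CPM, and -0.39 (-0.68 to -0.10). Cd86 (-0.06), Cd80 (-0.07), Lgals9 (0.16) and Pdcd1lg2 (0.40) had intervals that included 0. Of the 8 members, 2 were at least 1.5-fold higher and 1 lower, against 11.5% and 6.27% of the 9324 genes counted. In either direction 17.8% of those genes were past 1.5-fold. In cells thinned to 2000 UMIs, Icosl (6 and 15 UMIs left) had -0.01 and Cd40 -0.08, so the lower values of both were not kept at that depth.

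The monocyte values differed in how much they rested on few cells. Of the Tnfsf9 UMIs, 62.5% in Pgdfl/fl and 37.0% in Pgdfl/flLysMCre were in 5 cells, while for Cd274 these shares were 28.9% and 11.6%. In the subcluster led by Ly6c2 and Cd209a, which held 78 and 182 of the monocytes, Cd274 had a log2 ratio of 0.58 (0.22 to 0.96) and Cd40 -0.62 (-0.99 to -0.25), but Tnfsf9, with 17 and 46 UMIs, had 0.25 (-0.58 to 1.15). A subcluster led by T cell genes held 8.59% of Pgdfl/fl monocytes with 6 of their 24 Tnfsf9 UMIs, and 16.1% of Pgdfl/flLysMCre monocytes with 39.7% of theirs. Another, with Ikzf2 and Tnfrsf4 among its leading genes, held 10 and 34 monocytes with 1 and 21 Tnfsf9 UMIs. T cell markers summed to 470 CPM in Pgdfl/fl monocytes and 834 in Pgdfl/flLysMCre. Among monocytes with no UMI of a T or B cell marker, Cd274 had 0.71 (0.26 to 1.19) and Tnfsf9, with 11 and 43 UMIs, 0.67 (-0.31 to 1.77).

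**Figure D2:**
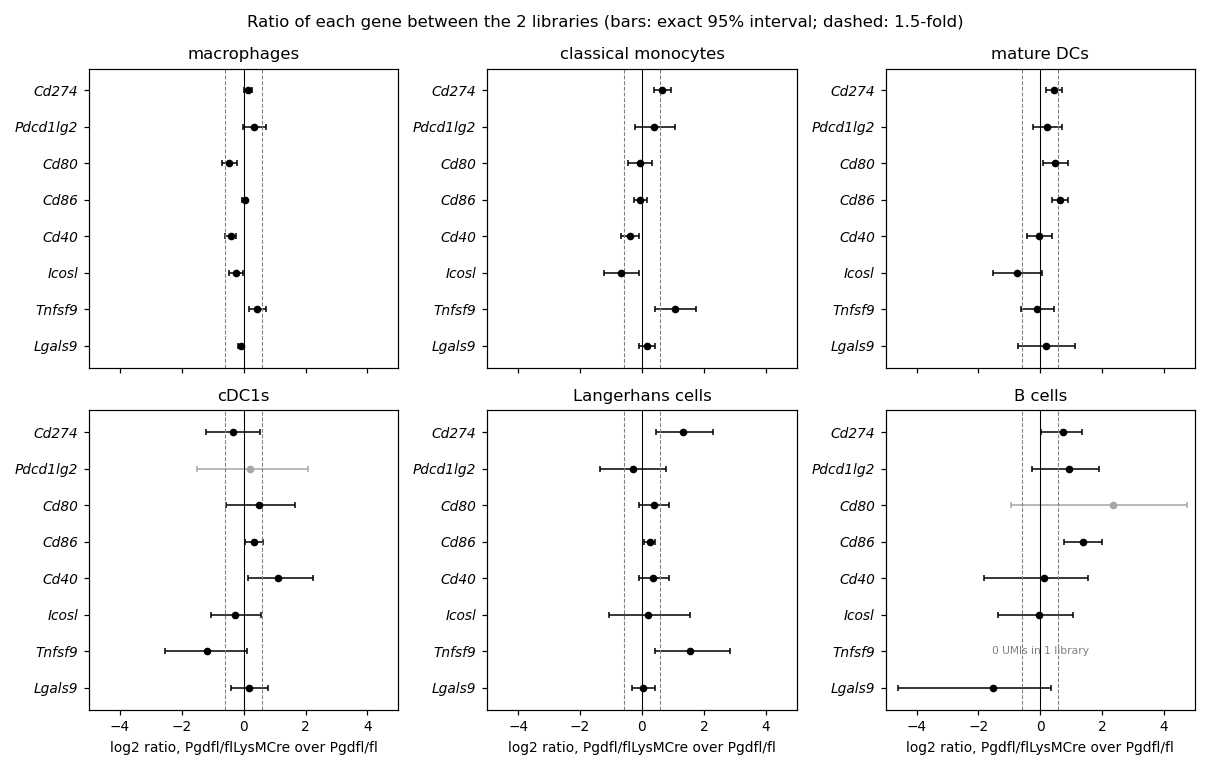
Log2 ratio of CPM, Pgdfl/flLysMCre over Pgdfl/fl, of each member in 6 antigen-presenting types, with exact conditional 95% intervals for counting error, dashed lines at 1.5-fold and members under 20 UMIs in grey. Cd274 is above 0 in macrophages (0.13), classical monocytes (0.66), mature DCs (0.44), Langerhans cells (1.32) and B cells (0.72) and below 0 in cDC1s (-0.34), and Cd40 is lowest in macrophages (-0.41) and classical monocytes (-0.39) and highest in cDC1s (1.13).

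In mature DCs, the cells that carry antigen to lymph nodes and prime T cells, Cd86, Cd80 and Cd274 were higher in Pgdfl/flLysMCre. Cd86 had 193 and 467 UMIs, 246 and 381 CPM, a log2 ratio of 0.63 (0.38 to 0.88). Cd80 had 74 and 162 UMIs, 94.4 and 132 CPM, and 0.48 (0.08 to 0.90), and Cd274 had 178 and 379 UMIs, 227 and 309 CPM, and 0.44 (0.18 to 0.71). Icosl had 30 and 28 UMIs, 38.3 and 22.8 CPM, and -0.75 (-1.54 to 0.05). Pdcd1lg2 (0.22), Cd40 (-0.04), Tnfsf9 (-0.11) and Lgals9 (0.17) had intervals that included 0. One member, Cd86, was at least 1.5-fold higher and 1, Icosl, lower, against 12.3% and 8.25% of 6791 genes. The median log2 ratio was 0.20 for the members and 0.03 for all genes.

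After thinning to 2000 UMIs, Cd86 was seen in 34.5% of Pgdfl/fl mature DCs and 41 of 82 Pgdfl/flLysMCre mature DCs and Cd274 in 36.2% and 43.9%, in the same order as the CPM. Cd80 went the other way, 19.0% and 13.4%, with 12 and 14 UMIs left, and its thinned log2 ratio was -0.28 (-1.50 to 0.97), so the order of Cd80 is not firm at this depth. Thinned to 5000 UMIs, the shares for Cd80 were 27.8% and 46.8%. The 5 cells with the most UMIs held 33.2% and 26.3% of Cd86. T cell markers were at 861 and 862 CPM in mature DCs, and macrophage markers at 1703 and 748. Among mature DCs with no UMI of a T or B cell marker, Cd86 (76 and 192 UMIs) had a log2 ratio of 1.14 (0.75 to 1.54) and Cd274 0.62 (0.24 to 1.01), while Icosl (11 and 18 UMIs) turned to 0.51 (-0.65 to 1.74).

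More members were seen together in a mature DC of the Pgdfl/flLysMCre library. In cells thinned to 5000 UMIs, a mature DC had a UMI of 2.39 of the 8 members on average in Pgdfl/fl (54 cells) and of 2.92 in Pgdfl/flLysMCre (79 cells). Cd274 and Cd86 occurred together in 37.0% of cells (95% Clopper-Pearson interval 24.3% to 51.3%) and 49.4% (37.9% to 60.9%), and their separate shares multiplied to 37.0% and 49.3%. Cd274 and Cd80 occurred together in 18.5% (9.25% to 31.4%) and 38.0% (27.3% to 49.6%). The intervals of the genotypes overlapped for both pairs. Macrophages had 2.25 and 2.20 members per cell, classical monocytes 2.04 and 2.08, and Langerhans cells 1.62 and 1.66.

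cDC1s, which present antigen to CD8+ T cells, had few UMIs of most members. Cd86 had 142 and 313 UMIs, 241 and 304 CPM, a log2 ratio of 0.33 (0.04 to 0.63). For Cd40, 11 and 42 UMIs (18.7 and 40.8 CPM) gave 1.13 (0.14 to 2.23), but 1 Pgdfl/flLysMCre cell held 21 of the 42 and 5 cells held 78.6%. Tnfsf9 had 13 and 10 UMIs and -1.19 (-2.53 to 0.12). Macrophage markers summed to 224 CPM in Pgdfl/fl cDC1s and 2358 in Pgdfl/flLysMCre, and T cell markers to 449 and 869. Of the 11 macrophage markers 7 and 9 were detected, with Mrc1 and Folr2 at 0 in both. In the subcluster led by cDC1 genes (33 and 37 cells), Cd40 had 10 and 14 UMIs and a log2 ratio of 0.30 (-0.98 to 1.63), and among the 22 and 22 cDC1s with no UMI of a T or B cell marker it had 6 and 4. Of 7 members counted, 1 was at least 1.5-fold higher and 1 lower, against 20.6% and 5.64% of 6346 genes, and Pdcd1lg2, with 5 and 10 UMIs, was under the limit of 20.

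In Langerhans cells, the macrophage-related antigen-presenting cells of the epidermis, 7 of 8 members had a log2 ratio above 0, where 47.5% of the 8406 genes did, and the medians were 0.31 and -0.02. Cd274 had 14 UMIs in Pgdfl/fl and 54 in Pgdfl/flLysMCre, 10.8 and 27.0 CPM, which gave 1.32 (0.45 to 2.28). Tnfsf9 had 8 and 36 UMIs, 6.20 and 18.0 CPM, and 1.54 (0.41 to 2.86). Both began from low levels, and 5 cells held 78.6% and 40.7% of the Cd274 UMIs and 87.5% and 58.3% of the Tnfsf9 UMIs. Cd86, the most counted member, had 429 and 787 UMIs, 332 and 394 CPM, and 0.25 (0.07 to 0.42). Cd80 (55 and 111 UMIs, 0.38), Cd40 (56 and 112, 0.37), Icosl (0.20), Lgals9 (0.04) and Pdcd1lg2 (-0.29) had intervals that included 0. At least 1.5-fold higher were 2 members and lower 0, against 7.97% and 8.67% of genes. In this type T cell markers were lower in Pgdfl/flLysMCre, 474 and 282 CPM, as were macrophage markers, 1720 and 970. Among the cells with no UMI of a T or B cell marker, Cd274 (8 and 21 UMIs) had 0.55 (-0.68 to 1.94), Tnfsf9 (4 and 31 UMIs) 2.12 (0.62 to 4.08) and Cd40 -0.14, and the part of the macrophage markers was not tested. In thinned cells Cd86 had -0.02 (-0.47 to 0.44) and Icosl (2 and 1 UMIs) -1.51, so the directions of Cd86, Cd40 and Icosl were not kept throughout.

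B cells numbered 566 in Pgdfl/fl and 35 in Pgdfl/flLysMCre, so 1 side of each ratio was thin. Cd86 had 183 and 27 UMIs, 80.8 and 212 CPM, a log2 ratio of 1.39 (0.75 to 1.98). Cd274 had 248 and 23 UMIs, 109.5 and 180.3 CPM, and 0.72 (0.03 to 1.34), with 5 cells holding 9.68% and 60.9% of its UMIs. Icosl, the member with its highest level in B cells, had 127 and 7 UMIs and -0.03. Pdcd1lg2 had 85 and 9 UMIs and 0.91 (-0.27 to 1.90), Cd40 66 and 4, and Lgals9 103 and 2 UMIs and -1.54 (-4.60 to 0.35). Tnfsf9 had 11 UMIs in Pgdfl/fl and was not detected among the Pgdfl/flLysMCre B cells, whose count of 0 allows up to 28.9 CPM by the exact Poisson interval. Of 6 members counted, 3 were at least 1.5-fold higher and 1 lower, where 21.8% and 27.0% of 7227 genes were, 48.8% in all. T cell markers summed to 384 CPM in the B cells of Pgdfl/fl and 635 in those of Pgdfl/flLysMCre, with a UMI in 48.9% and 57.1% of cells. Among B cells with no UMI of a T cell or macrophage marker, Cd274 had 33 and 3 UMIs and 0.77 (-1.58 to 2.45).

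Outside these types, neutrophils had 59 and 79 Cd274 UMIs, 25 and 42 of Cd80, and 14 and 37 of Lgals9, the last with a log2 ratio of 1.16 (0.24 to 2.16). It was the 1 of 3 members counted there past 1.5-fold, where 37.8% of 1931 genes were. T cells, in which Lyz2-driven Cre is not active, gave a view of how the members differed between the libraries in untargeted cells. There Cd274 (337 and 357 UMIs), Pdcd1lg2 (248 and 301), Tnfsf9 (106 and 108) and Lgals9 (257 and 265) were near equal in CPM. Cd80, with 43 and 87 UMIs (9.72 and 18.4 CPM), had 0.92 (0.38 to 1.48), and Cd86 had 110 and 176 UMIs and 0.58 (0.23 to 0.94). Cd80 was thus the 1 member past 1.5-fold in the clusters named T cells, where 5.18% of 10737 genes were higher and 5.19% lower, 10.4% in all. With the unnamed clusters with T cell markers added, Cd80 had 1.43, Cd40 0.70, Cd86 0.62, Pdcd1lg2 0.56 and Tnfsf9 0.42. The interval of Cd40 included 0 there, as did those of Cd274 (0.12), Lgals9 (0.09) and Icosl (-0.04). The member values thus also depended on which clusters counted as T cells. Side by side, the log2 ratio of Cd86 was 0.63 in mature DCs, 0.58 in T cells, 0.03 in macrophages and -0.06 in classical monocytes. It was 0.33 in cDC1s, 0.25 in Langerhans cells and 1.39 in B cells. Cd86 was at 24.9 and 37.2 CPM in T cells, against 246 and 381 in mature DCs, and its source in T cells was not tested.

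Macrophages and monocytes were not uniform. Among macrophages, the subcluster led by Cxcl2 and Vcam1 had Cd80 at 66.0 CPM in Pgdfl/fl and 54.4 in Pgdfl/flLysMCre, and it held 190 of 655 macrophages (29.0%) and 112 of 671 (16.7%), and 44.5% and 27.8% of their Cd80 UMIs. Within it Cd80 had a log2 ratio of -0.28 (-0.70 to 0.13), and within the subcluster led by Slpi and Cx3cr1 -0.23 (-0.86 to 0.38). In the subclusters led by Gpnmb and Spp1 and by Gzma and Nkg7 it had -0.70 (-1.51 to 0.09) and -0.71 (-1.44 to 0.02). How much of the macrophage value of -0.46 went with the shares of the subclusters was not tested. Cd40 differed inside the Cxcl2 and Vcam1 subcluster, at 79.2 and 47.5 CPM over all its cells, a ratio of -0.74 (-1.16 to -0.32). Cd274 there had 126 and 161 CPM, 0.36 (0.10 to 0.61), and Tnfsf9 12.3 and 30.8 CPM, 1.32 (0.60 to 2.07). In the subcluster led by Slpi and Cx3cr1, Cd40 had 0.15 and Cd86 0.31 (0.15 to 0.48).

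A small subcluster led by Retnla held a larger share of macrophage Tnfsf9 in Pgdfl/flLysMCre than in Pgdfl/fl. It held 12 Pgdfl/fl and 41 Pgdfl/flLysMCre macrophages, and 2.19% and 18.6% of the macrophage Tnfsf9 UMIs. The subcluster led by Slpi and Cx3cr1 held 38.8% and 16.5% of these UMIs, and the one led by Cxcl2 and Vcam1 14.8% and 15.1%. In the largest macrophage cluster, led by Vcam1, Apoe and the C1q genes (573 and 546 cells), Tnfsf9 had a log2 ratio of 0.28 (-0.03 to 0.59), while Cd80 had -0.47 and Cd40 -0.45. Cd274 did not share this pattern, with 0.14 in that cluster. In the subcluster led by Gpnmb and Spp1 (49 and 64 cells), Cd274 was at 182 and 142 CPM, a ratio of -0.36, and Pdcd1lg2 had 16 and 6 UMIs, -1.68. Among macrophages, Pdcd1lg2 had -0.32 in the Slpi and Cx3cr1 subcluster (10 and 7 UMIs) and -1.02 in the Cxcl2 and Vcam1 one (22 and 7). Both intervals included 0. In subclusters led by T cell genes it had 0.55 (Gzma and Nkg7), 1.52 (Ccl1 and Penk, 7 and 30 UMIs) and -0.16 (Ikzf2 and Tnfrsf4), and 0.12 in the one led by Hist1h2ap. The direction of both PD-1 ligands thus differed between subclusters, some of them led by T cell genes, and that difference was not tested.

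**Figure D3:**
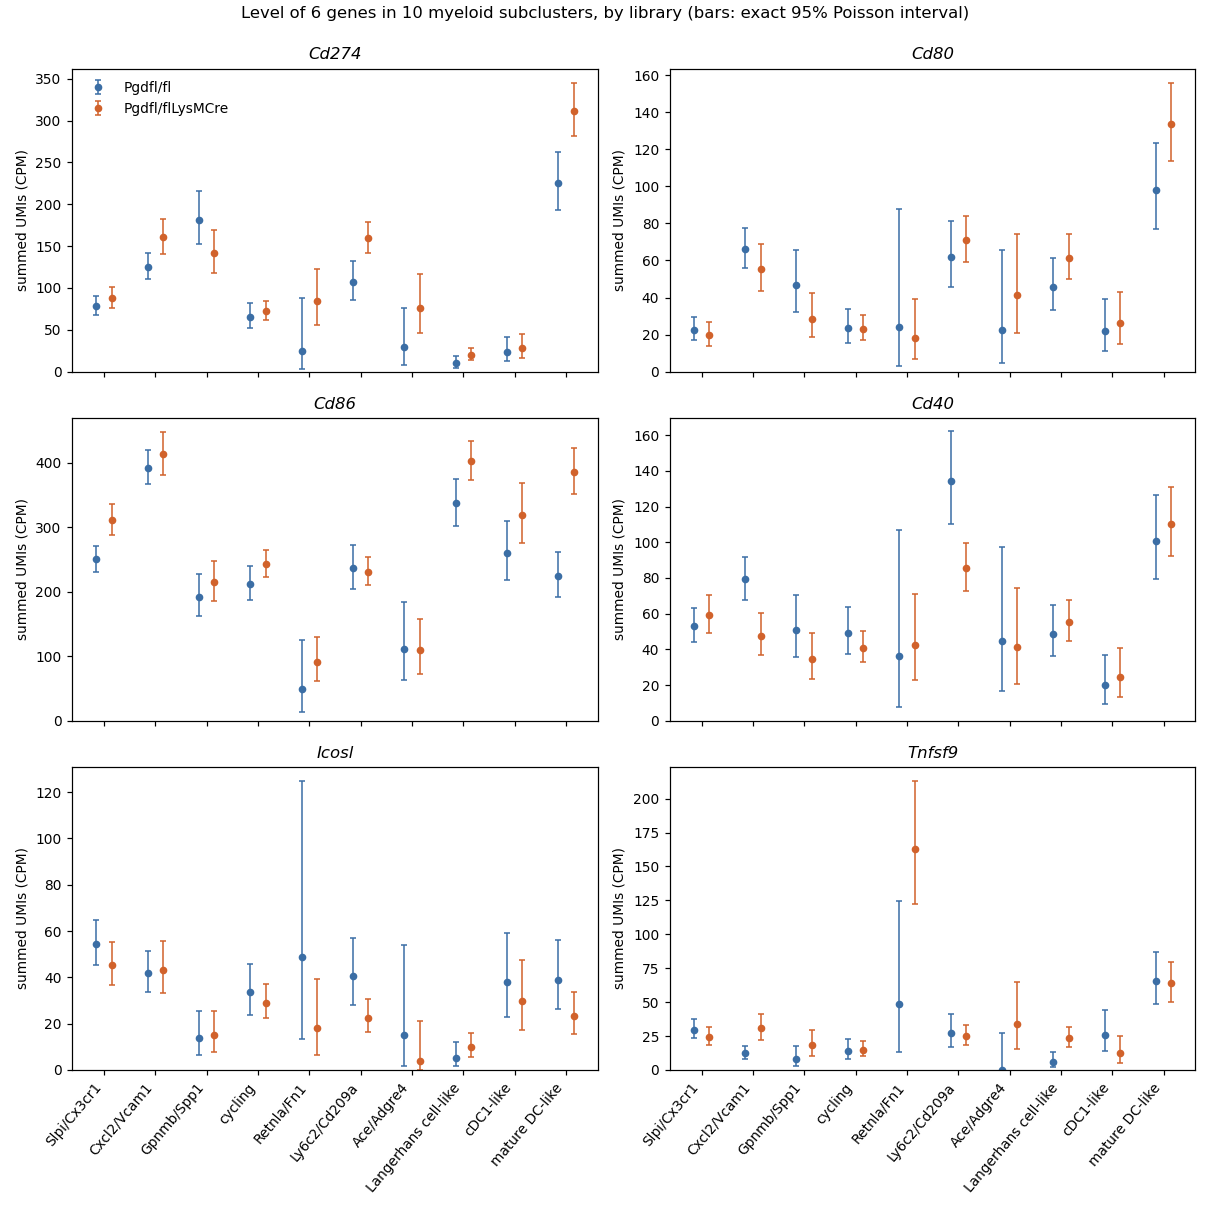
Level of 6 members (CPM, points) in 10 myeloid subclusters, named by their leading genes or type, in the Pgdfl/fl and Pgdfl/flLysMCre libraries, with exact Poisson 95% intervals. Tnfsf9 is at 12.3 and 30.8 CPM and Cd40 at 79.2 and 47.5 CPM in the subcluster led by Cxcl2 and Vcam1.

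Other genes of the pathway were read from lists of further ligands, the interferon gamma response, the NF-kB response and the adaptors of CD40, to be read beside the shares of all genes past 1.5-fold given for each type. In macrophages, 2 of 13 further ligands were at least 1.5-fold higher, Cd70 (9 and 68 UMIs, log2 ratio 2.69), the ligand of CD27, and Tnfsf4 (13 and 35, 1.21), the OX40 ligand. The 2 lower were Cd276 (173 and 134, -0.59), which encodes B7-H3, and Tnfsf15 (60 and 28, -1.32). Of 14 interferon gamma genes, Cxcl9, a chemokine for T cells, had 7460 and 4186 UMIs (863 and 415 CPM) and -1.06, Igtp had 0.64, and the other 12 were within 1.5-fold. Of 12 NF-kB genes and 8 CD40 adaptors 0 passed, with medians of -0.13 and -0.05 against 0.07 for all genes. Cd274, an interferon gamma target by general knowledge, had 0.13 in macrophages, and the median of the 14 interferon gamma genes was 0.03. A part of interferon gamma in these values was not tested. In classical monocytes 1 of 14 interferon gamma genes (Igtp, 0.59), 0 of 12 NF-kB genes, 0 of 8 adaptors and, among 8 ligands, Tnfsf14 (-0.66) and Cd200 (-0.62) passed.

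In mature DCs, Tnfsf4 had 15 and 58 UMIs, 19.1 and 47.3 CPM, a log2 ratio of 1.30, and Tnfsf15 20 and 8 UMIs, -1.97, the 2 of 9 further ligands past 1.5-fold. Cxcl10 (18 and 84 UMIs, 1.58) and Irgm1 (0.79) were higher among 14 interferon gamma genes. Of 8 CD40 adaptors, Traf3 had 0.68 and Traf5 -0.69 and Traf2 -0.65, while 0 of 12 NF-kB genes passed. In Langerhans cells Tnf (198 and 149 UMIs, -1.04) and Bcl3 (-0.63) of 12 NF-kB genes and Cxcl9 (257 and 138 UMIs, -1.53) of 14 interferon gamma genes were lower, with Tnfsf15 (-0.88) of 8 ligands lower and Traf2 (0.59) of 8 adaptors higher. In cDC1s, Icam1 (31 and 109 UMIs, 1.01), Tnfsf8 (1 and 77 UMIs) and Cd200 of 6 ligands and Nfkbia (150 and 458 UMIs, 0.80) and Nfkb2 (1.36) of 11 NF-kB genes were higher. Tnfsf8 was also among the leading genes of a cluster named T cells, and T cell markers summed to 449 and 869 CPM in the cDC1s. There 2 of 12 interferon gamma genes were higher and 3 lower, and 1 of 7 adaptors, Traf2, was higher. In B cells, where 21.8% of all genes were at least 1.5-fold higher and 27.0% lower, 6 of 12 NF-kB genes were higher, among them Cd83 (1265 and 160 UMIs, 1.17), a marker of activated B cells, and 1 lower, and 10 of 14 interferon gamma genes were lower, such as Ciita (-1.13) and Psmb9 (-0.62), with 2 of 5 ligands higher and 2 of 8 adaptors higher and 3 lower.

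The receptors that the members meet were read in the clusters named T cells (711 and 671 cells), 4 clusters with Foxp3, Il17a, Mki67 or Gzma among their leading genes. There Ctla4 had 682 and 593 CPM in Pgdfl/fl and Pgdfl/flLysMCre, a log2 ratio of -0.20, Icos 900.2 and 781 CPM, -0.20, and Tnfrsf9 866 and 973 CPM, 0.17. Pdcd1, which encodes PD-1, had 226 and 268 CPM, 0.25, Cd28 249.9 and 267, 0.10, Havcr2 76.6 and 78.4, 0.03, and Cd40lg 19.9 and 15.6, -0.35. Past 1.5-fold in these clusters stood 0 of 7 receptors. The 3 unnamed clusters with T cell markers (997 and 400 cells), led by genes such as Cd8a, Lef1 and Ifit3, gave other values. In them Tnfrsf9 had 31.7 and 65.9 CPM, 1.06 (0.73 to 1.38), Pdcd1 35.6 and 56.9, 0.68 (0.35 to 1.00), Havcr2 29 and 25 UMIs, 1.00 (0.17 to 1.82), and Cd40lg 24.5 and 11.6 CPM, -1.08 (-1.74 to -0.48). With both sets summed, a choice made after the data were seen, Tnfrsf9 had 0.73, Pdcd1 0.71, Havcr2 0.59 and Cd40lg -0.65, and Ctla4 (0.26) and Icos (0.20) turned to higher. The receptor values thus depended on which clusters counted as T cells. The same 7 genes gave 5 higher in macrophages, among them Tnfrsf9 (0.98), Pdcd1 (0.94) and Ctla4 (0.79), and 4 higher of 6 in classical monocytes, beside the higher T cell marker sums given above for those types.

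Across 18 groups, each a named type in 1 library with at least 20 cells, the members fell into different patterns of level. Likeness was the Pearson correlation of log2(CPM + 10) with each of 10951 genes, given as a description because the groups share 2 libraries. Cd86 was most like Gm6377 (0.959), Ifi30 (0.956) and H2-Eb1 (0.945), the latter a chain of MHC class II, and Cd40 like Scpep1 (0.932), Ifi30 (0.931) and Prcp (0.929). Cd274 was most like Tmem140 (0.946), Ankrd33b (0.863) and Birc3 (0.859), and Cd80 like Gabarap (0.955), Ogfrl1 (0.928) and Rhog (0.925). Pdcd1lg2 was most like Stat4 (0.916), Ccnd2 (0.916) and Ralgapa2 (0.891), of which Stat4 is known from T and NK cells. Lgals9 was most like Tmem189 (0.931), Slc36a4 (0.907) and Laptm5 (0.904), Tnfsf9 like Ssh1 (0.872), Slc33a1 (0.869) and Stx8 (0.869), and Icosl, the least matched, like Sh3pxd2a (0.797), Dleu2 (0.787) and Ly86 (0.768). Among the members themselves, Cd86 and Cd40 were the most alike (0.873) and Pdcd1lg2 and Lgals9 the least (-0.683).

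**Figure D4:**
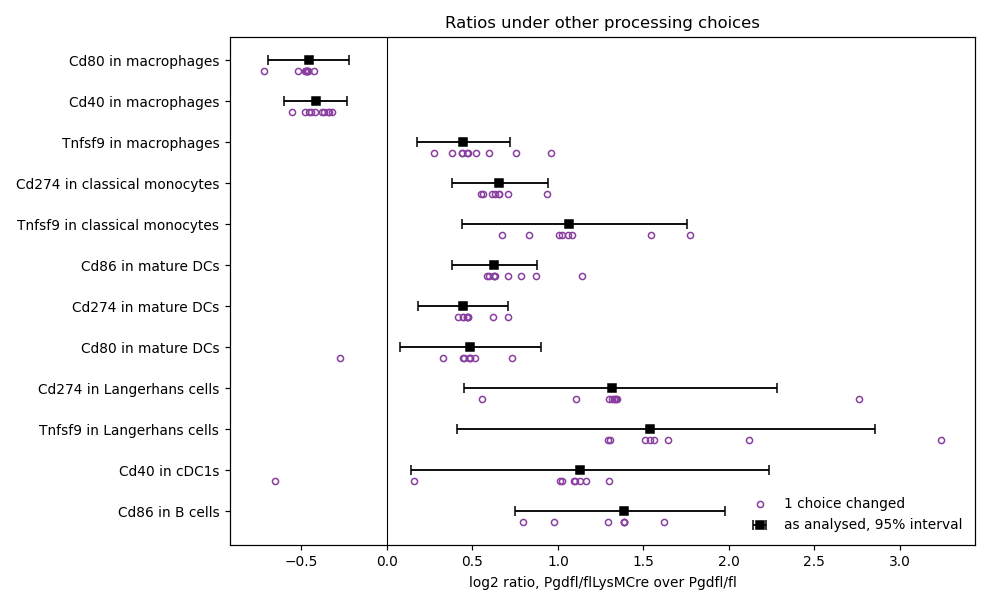
Log2 ratios, Pgdfl/flLysMCre over Pgdfl/fl, of 12 member and type pairs as reported (squares, with 95% intervals) and with 1 processing choice changed (circles). The Cd80 and Cd40 ratios in macrophages stay below 0 (-0.72 to -0.43 and -0.56 to -0.32), and the Cd274 ratio in classical monocytes stays above 0 (0.55 to 0.93).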

How the data were processed

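Single-cell RNA was measured in 2 libraries, 1 per genotype, tagged with different oligonucleotides. The paper's methods describe a pooling of the sorted CD45+ cells from tumors of both genotypes before reverse transcription. Whether the libraries came from 1 shared capture was not tested. The authors deposited unnormalized UMI counts per gene and barcode, with counts of 12 multiplexing oligonucleotides, which served only as a check. The submitters' processing notes name Cell Ranger 6.1.2 and mm10. Filters of the study had not been applied.

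Kept were cells of 500 to 7500 genes with a mitochondrial share of up to 15%, clustered in Seurat 5.3.0 (SeuratObject 5.2.0, Matrix 1.6.5, R 4.3.3) on both libraries merged: log normalisation, 2000 variable genes without the members, 30 principal components, 20 neighbours, resolution 0.8. Clusters were named from markers with at least 3 detected in at least 25% of cells, and from their 10 leading genes. The markers were listed first, the limits after the counts had been seen. No doublet caller was run. Cells with UMIs of T or B cell markers (for B cells, T cell or macrophage markers) were left out as an alternative instead. Macrophages, monocytes and DCs were clustered again for subclusters, named by leading genes.

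UMIs were summed per type and library and divided by all UMIs of those cells (CPM). Ratios carry exact conditional, levels exact Poisson and shares Clopper-Pearson 95% intervals (scipy 1.17.1, numpy 2.4.6, pandas 2.3.3, Python 3.11.15). Only the ratio intervals were run on simulated data. Those were independent Poisson counts, so they cannot show the error where few cells hold the UMIs. Genes with at least 20 UMIs over both libraries were counted past 1.5-fold, and shares of cells were compared after thinning cells to 2000 or 5000 UMIs. There was no test and no p-value. The members and lists were chosen with earlier results of these data known. Named were all 8 members, for each the 3 most alike genes (at least 100 UMIs, pseudocount 10), up to 4 genes per list and type past 1.5-fold by summed UMIs, and the T cell receptors. Alternatives were a limit of 10% mitochondrial UMIs, resolution 1.6, members among the variable genes, cells without those UMIs, thinned cells, TMM scaling (edgeR 4.0.16), omission of the 5 highest cells per gene, a fold of 2, and those added after the data were seen, named in the closing section. One motif and 1 listed gene are not reported here.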

Additional observations from a re-analysis of the deposited data

Results flagged for a closer look

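The log2 ratio of Cd80, Pgdfl/flLysMCre over Pgdfl/fl, was 0.94 higher in mature DCs than in macrophages, because the values lay on opposite sides of 0 (0.48 and -0.46). The ratio of Cd40 was 1.54 higher in cDC1s than in macrophages and 1.52 higher in cDC1s than in classical monocytes, again on opposite sides of 0. With 1 library per genotype these differences were not tested. The Cd80 value of mature DCs turned negative when cells were thinned, and the Cd40 value of cDC1s rested on 42 UMIs of which 1 cell held 21.

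The counts of multiplexing oligonucleotides, outside the gene counts, held a signal from oligonucleotides other than the library's own, taken as the one with the most counts. The median barcode had 10.4% of its oligonucleotide counts from others in Pgdfl/fl and 5.55% in Pgdfl/flLysMCre. Of the kept cells, 755 in Pgdfl/fl and 51 in Pgdfl/flLysMCre had less than 80% of their oligonucleotide counts from their own, and without them 47 of 47 member ratios stayed inside their intervals.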

How the results depend on the processing

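Of the member ratios that each alternative gave, 47 of 47 stayed inside their intervals under a limit of 10% mitochondrial UMIs, 39 of 39 at resolution 1.6, 47 of 47 with members among the variable genes and 47 of 47 under TMM scaling. Inside were 30 of 42 in cells without UMIs of T or B cell markers (for B cells, T cell or macrophage markers), 30 of 44 in thinned cells and 33 of 42 without the 5 highest cells. Chosen after the data were seen, own oligonucleotide of at least 80% gave 47 of 47, the largest macrophage cluster 8 of 8, and omission of subclusters led by lymphocyte genes 37 of 40. Of the opposite sign were 11, 11, 7 and 5 in marker-free cells, thinned cells, without the 5 highest cells and without lymphocyte subclusters, and 1 and 2 under TMM scaling and own oligonucleotide of at least 80%. The unnamed clusters with T cell markers, included after the data were seen, moved the receptor values and several member values in T cells, as given above.

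Counts of members past 1.5-fold are listed where they changed by a factor of more than 1.5, or to or from 0. Beside them stands the share of all genes past the fold under the same setting, and smaller changes of the counts are not listed. In macrophages 0 became 1 in marker-free cells (13.0% of all genes), 3 when thinned (15.9%) and 1 without the 5 highest cells (12.6%). In mature DCs 2 became 1 at 10% mitochondrial UMIs (20.8%), 1 when thinned (25.7%), 6 without the 5 highest cells (24.6%) and 0 at a fold of 2 (6.14%). In cDC1s 2 became 0 in marker-free cells (26.7%), 0 when thinned (23.1%) and 1 without the 5 highest cells (31.5%). In Langerhans cells 2 became 1 under each of these 3 (21.6%, 23.5% and 18.2%), and 4 without lymphocyte subclusters (18.7%). At a fold of 2, the 3 of classical monocytes became 1 (5.93%) and the 4 of B cells 2 (26.3%). Single members of classical monocytes also crossed 1.5-fold. Cd274 fell under it at 10% mitochondrial UMIs (0.55), and Cd40 passed it with members among the variable genes (-0.64). The ratio of Cd40 in cDC1s became -0.66 (-2.93 to 1.42) in marker-free cells. The cause of each move was not tested. Leaving out 5 cells takes more from the smaller group by construction: in B cells, with 566 and 35 cells, 84.8% of all genes then became at least 1.5-fold lower, so the -0.21 of Cd274 there says nothing of its stability.

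At resolution 1.6 no cluster was named classical monocytes, so that type has no value there. No paired analysis was possible because each genotype has 1 library and the labels carry no replicate numbers. Depth limits Pdcd1lg2, Icosl and Tnfsf9 in DCs and Langerhans cells and the Pgdfl/flLysMCre B cells, where few UMIs were counted.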
